A study of Homo sapiens with 4 samples.

Results

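H2AK119ub peaks that were at least 2 times as wide in YTHDF1 knockdown cells as in wild-type cells are described here. They were chosen by width from 2 deposited peak lists. On chromosomes 1 to 22, 1 knockdown peak and 1 wild-type peak had to share at least 1 base with each other and with no other peak, and the knockdown width divided by the wild-type width had to be 2 or more. Of 16791 such one-to-one pairs, 711 met this limit (4.23%). The mirror class, in which the knockdown peak was at most 0.5 times as wide, held 2137 pairs (12.7%), and 13943 pairs lay between the limits. Of all one-to-one pairs the knockdown peak was the wider in 6013 (35.8%), the narrower in 10032 (59.7%) and of equal width in 746 (4.44%).

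The lists come from chromatin immunoprecipitation sequencing (ChIP-seq) of H1 cells, an established human embryonic stem cell line, grown in mTeSR1 medium. The knockdown cells (YTHDF1 KD H1) had received a short hairpin RNA against YTHDF1, and the wild-type H1 cells were untreated. No control hairpin is named, so treatment with a hairpin and loss of YTHDF1 cannot be told apart. Nor do the labels say whether the knockdown line is a clone. Each group had 1 H2AK119ub library and 1 input library, and the inputs were not analysed here. As each group had a single library, the spread between replicates is unknown and no test was run. Peak lists measure neither RNA nor protein, so YTHDF1 loss and the embryonic stem cell identity were not checked. The depth of both libraries is unknown. Positions are in hg38.

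H2AK119ub is histone H2A carrying a single ubiquitin on a lysine near its end. It is placed by Polycomb repressive complex 1 (PRC1) through its RING1 and RNF2 subunits, and BAP1 with an ASXL partner removes it. In embryonic stem cells the mark is densest over CpG-rich promoters of silent developmental genes, where wide domains form, and a thinner layer lies over much of the remaining genome. YTHDF1 is a cytoplasmic protein that binds messenger RNA carrying N6-methyladenosine (m6A).

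Because several doubled pairs spread onto a gene's promoter that the wild-type peak did not touch, the promoters with the longest gains are shown first. Each runs from 250 bases before to 50 after an annotated start, in GRCh38.p14 from RefSeq, 5′ to 3′ on the strand of the gene. Capitals mark CG, the dinucleotide that is methylated in vertebrate DNA and dense in CpG islands. The promoters of TNFSF14, CCDC42, RPS9 and C1QA lay wholly in the knockdown peak and outside the wild-type peak. They stand at chr19:6670111-6670410 (minus strand), chr17:8744787-8745086 (minus), chr19:54200608-54200907 (plus) and chr1:22636213-22636512 (plus). In the same order they lay 6.79, 0.114, 0.007 and 4.29 kb from the wild-type peak of their pair. The promoters of CCDC42 and RPS9 thus border the wild-type peak rather than standing apart from it.
TNFSF14: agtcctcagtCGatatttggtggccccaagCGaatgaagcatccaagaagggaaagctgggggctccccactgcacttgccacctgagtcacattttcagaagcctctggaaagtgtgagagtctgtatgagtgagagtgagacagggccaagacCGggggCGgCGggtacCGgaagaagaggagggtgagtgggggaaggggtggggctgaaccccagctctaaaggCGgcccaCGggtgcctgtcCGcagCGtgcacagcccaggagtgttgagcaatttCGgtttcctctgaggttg
CCDC42: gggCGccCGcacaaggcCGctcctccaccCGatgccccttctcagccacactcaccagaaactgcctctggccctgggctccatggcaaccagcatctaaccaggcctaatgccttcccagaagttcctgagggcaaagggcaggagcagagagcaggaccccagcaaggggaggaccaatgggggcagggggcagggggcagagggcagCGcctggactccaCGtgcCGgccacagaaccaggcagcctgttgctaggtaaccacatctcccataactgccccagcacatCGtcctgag
RPS9: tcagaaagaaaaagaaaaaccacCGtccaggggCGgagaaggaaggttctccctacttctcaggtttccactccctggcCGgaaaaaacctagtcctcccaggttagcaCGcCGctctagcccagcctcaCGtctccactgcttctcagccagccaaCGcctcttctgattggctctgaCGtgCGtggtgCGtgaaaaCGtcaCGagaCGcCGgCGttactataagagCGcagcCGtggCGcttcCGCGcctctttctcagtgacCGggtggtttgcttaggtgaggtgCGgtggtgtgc
C1QA: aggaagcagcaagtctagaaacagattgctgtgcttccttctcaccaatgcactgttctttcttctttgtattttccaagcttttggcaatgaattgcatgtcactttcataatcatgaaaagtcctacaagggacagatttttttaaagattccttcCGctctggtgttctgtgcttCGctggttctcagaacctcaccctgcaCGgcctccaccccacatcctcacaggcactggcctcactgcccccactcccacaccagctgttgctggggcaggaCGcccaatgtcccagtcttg

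For contrast, the promoters of AACS (chr12:125065185-125065484, plus strand) and COLGALT1 (chr19:17555399-17555698, plus) lay wholly inside both peaks of their pairs. They have the longest gains of that kind.
AACS: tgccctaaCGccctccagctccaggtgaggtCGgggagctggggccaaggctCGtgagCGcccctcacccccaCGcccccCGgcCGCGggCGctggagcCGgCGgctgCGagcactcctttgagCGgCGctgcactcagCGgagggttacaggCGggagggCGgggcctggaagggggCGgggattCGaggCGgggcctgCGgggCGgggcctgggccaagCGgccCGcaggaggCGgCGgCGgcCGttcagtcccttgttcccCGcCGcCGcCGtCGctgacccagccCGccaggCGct
COLGALT1: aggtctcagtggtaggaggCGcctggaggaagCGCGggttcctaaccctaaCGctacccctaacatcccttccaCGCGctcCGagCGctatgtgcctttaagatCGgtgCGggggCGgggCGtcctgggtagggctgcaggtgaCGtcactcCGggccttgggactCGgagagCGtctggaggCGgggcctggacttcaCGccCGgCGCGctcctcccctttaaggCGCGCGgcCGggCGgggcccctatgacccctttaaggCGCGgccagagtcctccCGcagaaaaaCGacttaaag
The promoters held by the knockdown peak alone had 11 CG in TNFSF14, 8 in CCDC42, 22 in RPS9 and 4 in C1QA. Those held by both peaks had 35 CG in AACS and 30 in COLGALT1. These 6 were picked for the length of the gain, so their CG counts describe these promoters only.

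The doubled pairs joined wild-type peaks narrower than most to knockdown peaks wider than most. The knockdown peaks measured 1.6 to 14.2 kb with a median of 5.4 kb, and the wild-type peaks 0.6 to 7 kb with a median of 2 kb. Over all one-to-one pairs the medians were 4 kb in knockdown cells, against 4.6 kb in wild-type cells. These widths chose the pairs and are given as a description. The difference in width ranged from 1 to 9.8 kb with a median of 3.2 kb, and the median ratio was 2.36. In sum the knockdown peaks spanned 3.97 Mb against 1.59 Mb in the wild type. The halved pairs summed to 5.26 Mb in knockdown cells, against 13.8 Mb in wild-type cells.

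**Figure D1:**
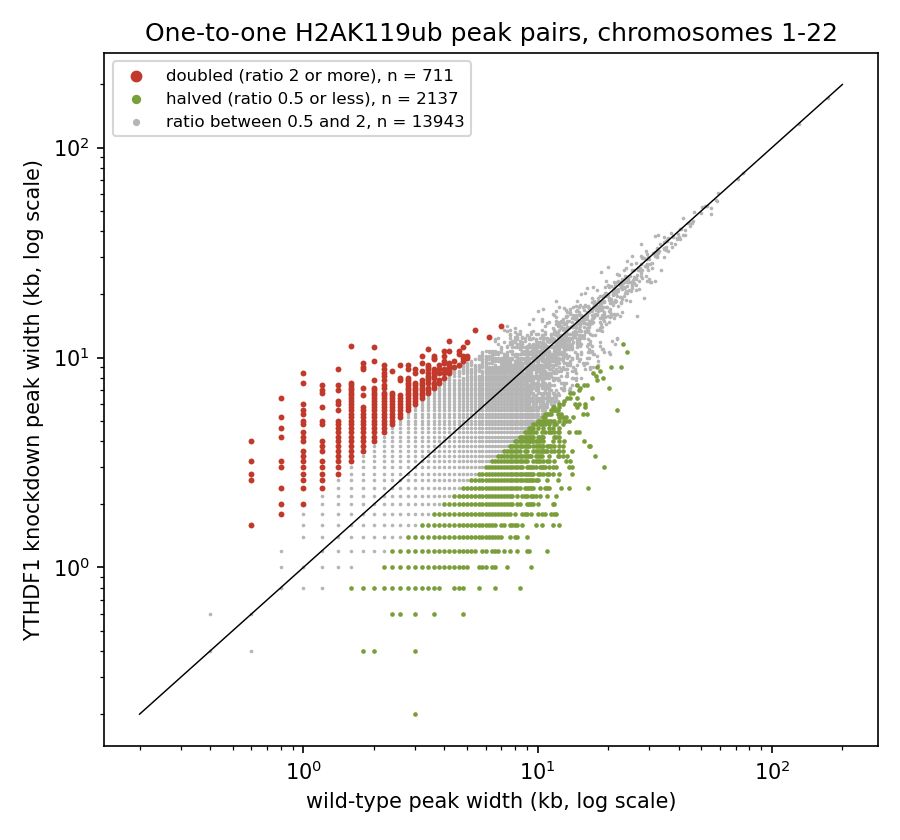
Width of the YTHDF1 knockdown peak (vertical axis, kb, log scale) against width of the wild-type peak (horizontal axis, kb, log scale) for 16791 one-to-one pairs, with the line of equal widths. The 711 doubled pairs lie above the line at wild-type widths of 0.6 to 7 kb, and the widest pairs, up to 171.8 kb in the knockdown, lie close to the line.

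The ratio was from 2 to under 3 in 564 pairs (79.3%), from 3 to under 4 in 96, from 4 to under 6 in 42 and from 6 upward in 9. Peak edges fall on a 200-base grid, and 103 pairs had a ratio of exactly 2, with 169 under 2.1. Among those were pairs of 2 kb in the knockdown against 1 kb in the wild type at MIPEP, a mitochondrial peptidase gene, and at FBXO5, which encodes an inhibitor of the anaphase-promoting complex. The first pairs left out had 9 kb in the knockdown against 4.6 kb in the wild type inside CLYBL on chromosome 13 (a ratio of 1.96) and 8.2 kb in the knockdown against 4.2 kb in the wild type inside STK32C on chromosome 10 (1.95). In all, 90 pairs had ratios from 1.9 to under 2.

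The share of pairs past the limit fell with wild-type width. That width is the denominator of the ratio that chose the members, so this fall is largely built into the rule and is given as a description. Of the pairs with a wild-type peak of up to 1 kb, 44 of 67 were doubled (65.7%, exact 95% binomial interval 53.1 to 76.8%). The share was 35.6% at 1 to 2 kb (317 of 890), 9.50% at 2 to 3 kb (241 of 2537), 2.55% at 3 to 4 kb (84 of 3288) and 0.453% at 4 to 6 kb (23 of 5078). Only 2 of 2416 pairs at 6 to 8 kb were doubled, and none of 1722 at 8 to 12 kb or of 793 above. Thus 686 members (96.5%) had a wild-type peak of at most 4 kb. The mirror class showed the same fall with knockdown width, with 84.1% of pairs at up to 1 kb, 52.5% at 1 to 2 kb and 21.9% at 2 to 3 kb. In each class up to 8 kb the halved share was the higher of the pair.

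**Figure D2:**
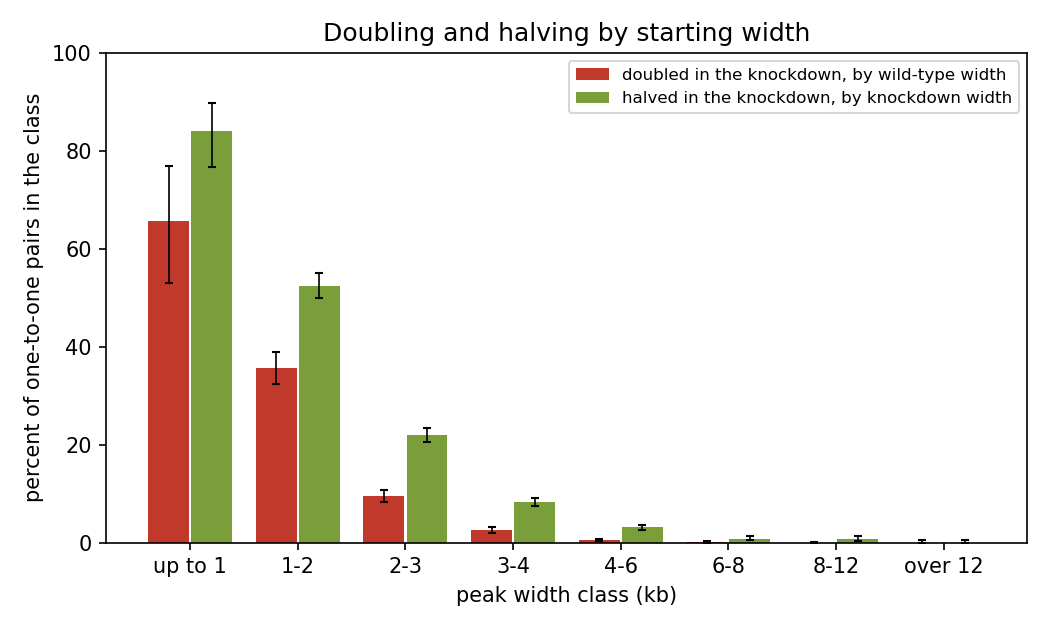
Percent of one-to-one pairs doubled in the knockdown, in classes of wild-type width (left bar), and halved in the knockdown, in classes of knockdown width (right bar). Bars show the percent and lines the exact 95% binomial interval, which covers counting error only, and both series fall from over 60% at up to 1 kb to under 1% at 6 kb and above.

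In most members the knockdown peak enclosed the wild-type peak and reached past it on both flanks. It enclosed the whole wild-type peak in 549 of 711 pairs (77.2%) and passed it on both sides in 477 (67.1%). In 45 pairs it reached farther on the lower-coordinate side alone and in 27 on the higher-coordinate side alone, with the other edge in place. In the other 162 pairs the knockdown peak gained on one flank and lost on the other. The mirror counts among halved pairs, with the libraries exchanged, were 81.7% enclosed and 73.7% on both sides.

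Growth was uneven between the flanks. Among the 549 enclosing pairs, the longer flank had a median of 2.4 kb and the shorter one 0.8 kb. In 287 of them (52.3%), over 75% of the gain lay on a single side. The longest extension on 1 flank was 8.4 kb, at TNFSF14. The knockdown peak kept a median of 100% of the wild-type peak, but under 50% of it in 30 pairs.

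**Figure D3:**
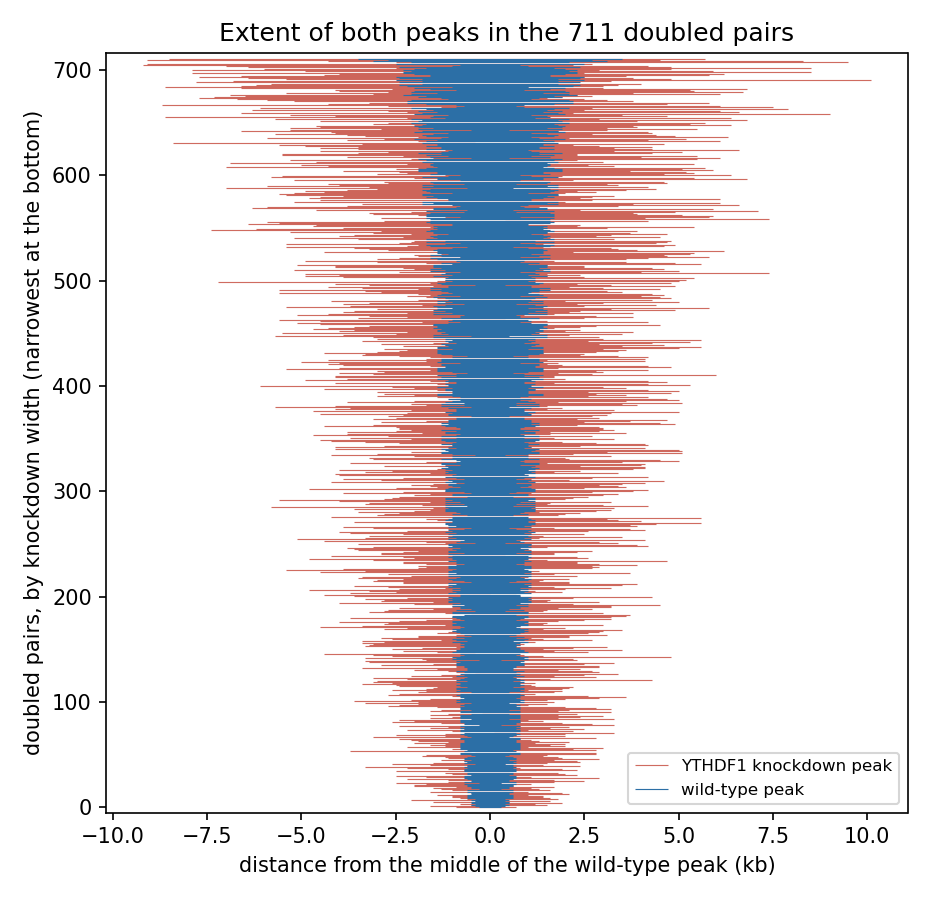
Each of the 711 doubled pairs is a line, ordered by knockdown width, with the knockdown peak in red and the wild-type peak in blue over it, against the distance from the middle of the wild-type peak in kb. Red extends beyond blue on both sides in 477 pairs.

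Knockdown peaks that touched a second wild-type peak were left out by the rule. The nearest other knockdown peak lay at a median of 9.4 kb from the knockdown peak, and the nearest other wild-type peak at 10.8 kb from the wild-type peak. In 161 pairs (22.6%) the knockdown peak ended within 2 kb of another wild-type peak. The same measure, taken from the wider peak to the other list, was 22.2% in halved pairs and 21.0% in pairs between the limits.

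The authors' score per peak, for which no unit is stated, placed the members in the middle of each list. Knockdown scores ran from 2.14 to 77.3 with a median rank at percentile 50.4 of the knockdown list. Wild-type scores ran from 2.08 to 85.1 with a median rank at percentile 43.6 of the wild-type list. Both peaks of all one-to-one pairs had a median percentile near 60 (59.6 for knockdown and 59.7 for wild-type peaks). In single members the rank moved either way, so a wider peak need not have a higher-ranked score. At C1QA it stood at percentile 68.3 in the knockdown against 16.2 in the wild type, and within CD34 at 20.6 against 45.2. No member reached the ceiling of 1000, which 281 knockdown and 416 wild-type peaks of other one-to-one pairs did.

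Pairs with the longest gain lay at genes of varied function. The longest gain, 9.8 kb, was on chromosome 19, where the knockdown peak measured 11.4 kb (6668801 to 6680200) and the wild-type peak 1.6 kb (6677201 to 6678800). It linked the 5′ end of TNFSF14, a cytokine of the tumour necrosis factor family, with the end of the complement gene C3. The wild-type peak covered the C3 end alone, 6.79 kb from the TNFSF14 promoter shown above. The next, also on chromosome 19, had 11.2 kb in knockdown cells, against 2 kb in wild-type cells, over the end of SYNGR4, a synaptogyrin gene, and stopped within 2 kb of KDELR1, a receptor that returns proteins to the endoplasmic reticulum.

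At AACS, which encodes acetoacetyl-CoA synthetase, the peaks measured 13.6 kb in knockdown cells (125057001 to 125070600), against 5.4 kb in wild-type cells (125063401 to 125068800). Both held the promoter, and 6.4 of the 8.2 kb gained lay upstream of it. COLGALT1, a collagen galactosyltransferase gene, had the widest knockdown peak of all members, with 14.2 kb against 7 kb in the wild type. The pair of the complement genes C1QA and C1QC on chromosome 1 had 9.2 kb in knockdown cells (22635201 to 22644400), against 2.2 kb in wild-type cells (22640801 to 22643000). The wild-type peak lay between the genes, while the knockdown peak covered all of C1QA and the lower-coordinate end of C1QC.

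Several of the longest gains lay inside genes, away from both ends. CDH1, the gene of the epithelial adhesion protein E-cadherin, held a knockdown peak of 9.6 kb and a wild-type peak of 2 kb, which ended at the same base (68798600), so all 7.6 kb were added on 1 side. CD34, which encodes a surface protein of blood progenitors and endothelium, held 8.8 kb in knockdown cells, against 1.4 kb in wild-type cells. PTDSS2, a phosphatidylserine synthase gene, held 11 kb in knockdown cells, against 3.4 kb in wild-type cells, and SERINC2 9.4 kb in the knockdown against 1.8 kb in the wild type. JAKMIP3 held 10.2 kb in knockdown cells, against 3.2 kb in wild-type cells. The same widths in both groups were found within ABCC2, a transporter of bile conjugates, whose peak came within 2 kb of one end.

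Other pairs among the 15 longest gains were at CCDC42, with 9 kb in knockdown cells, against 1.8 kb in wild-type cells, at RPS9, and 43.2 kb from the nearest protein-coding gene, TPRG1, with 8.8 kb in the knockdown against 1.8 kb in the wild type. At CCDC42 the wild-type peak passed the knockdown peak by 0.6 kb on the higher-coordinate side. The CCDC42 promoter lay 0.114 kb from the wild-type peak, less than a grid step of the peak edges, so it borders that peak. Thus at these pairs the gain was on a gene's end, inside a gene or outside genes.

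The largest ratio, 8.4, belonged to RPS9, which encodes a protein of the small ribosomal subunit. Its knockdown peak measured 8.4 kb (54194801 to 54203200) and its wild-type peak 1 kb (54199601 to 54200600). The wild-type peak stopped 7 bases short of the RPS9 promoter window, less than the 200-base grid of the peaks, so that promoter borders the wild-type peak rather than standing apart from it. A ratio of 8 was found on chromosome 10, 74.0 kb from ARHGAP12, with 6.4 kb in knockdown cells, against 0.8 kb in wild-type cells. The promoters of NOP16, a nucleolar protein gene, and HIGD2A, of the mitochondrial respiratory chain, shared a pair with 7.6 kb in knockdown cells, against 1 kb in wild-type cells (a ratio of 7.6). At METTL17, a factor of the mitochondrial ribosome, the widths were 4 kb in the knockdown against 0.6 kb in the wild type, the narrowest wild-type width among members.

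ITCH, a ubiquitin ligase gene on chromosome 20, had 6 kb in knockdown cells, against 1 kb in wild-type cells. The knockdown peak reached 5272 bases upstream of its start site, against 72 in the wild type, and 727 bases downstream, against 927. CHN1, a regulator of Rac signalling in axon growth, had 7 kb in knockdown cells, against 1.2 kb in wild-type cells. The other pairs among the 10 largest ratios lay outside genes, 10.7 kb from TSPEAR on chromosome 21 and 39.2 kb from HMX1 on chromosome 4, or are named above.

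The 10 members with the highest knockdown scores had wild-type peaks of 2.4 to 6.2 kb, all above the members' median of 2 kb. The highest, 77.3, belonged to a pair at RHCG, an ammonium transporter gene, of 9.8 kb in knockdown cells, against 3.6 kb in wild-type cells. The second, 76.5, belonged to a pair 58.2 kb from FGF18, a fibroblast growth factor gene, of 12.6 kb in the knockdown against 6.2 kb in the wild type. A pair 25.6 kb from SMAD6, an inhibitor of BMP signalling, had 7 kb in the knockdown against 3.2 kb in the wild type. A pair 39.3 kb from ZNFX1 had 6.2 kb in the knockdown against 2.4 kb in the wild type. At the promoter of FOXK2, a forkhead factor, the knockdown peak measured 10.2 kb and the wild-type peak 4.8 kb. RFX2, a regulator of cilium genes, had 9.4 kb in knockdown cells, against 4.2 kb in wild-type cells, DAB2IP 10.4 kb in the knockdown against 4.6 kb in the wild type, and PSD4 8 kb in the knockdown against 4 kb in the wild type. Of the 10 pairs, 5 lay outside protein-coding genes, 2 had a midpoint near a gene end and 3 lay deeper in a gene.

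The members' place in the genome was set beside the halved pairs and the pairs between the limits, using the midpoint of the wider peak. It lay within 2 kb of an annotated end of a protein-coding gene in 255 members (35.9%), against 31.3% of halved pairs and 45.3% of pairs between the limits. Elsewhere in a protein-coding gene lay 202 of 711 members (28.4%), against 812 of 2137 halved pairs and 28.6% of pairs between the limits. Outside these genes lay 254 members (35.7%), against 30.7% and 26.1%. Where the wider peak measured 4 to 8 kb, the shares near gene ends were 34.6, 31.9 and 48.3% in the same order. The gap to the pairs between the limits was thus also present at similar widths of the wider peak. The narrower peaks were not matched, as the rule holds them to at most 0.5 times the wider peak in members. Scores were not matched either. The gene table gives no exons, so these were not separated.

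**Figure D4:**
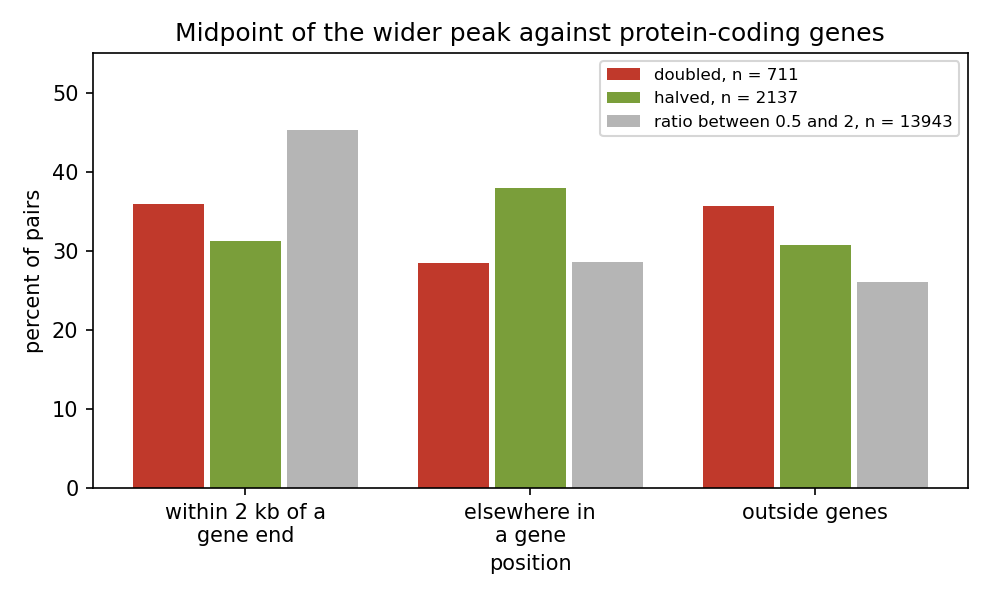
Percent of doubled (red), halved (green) and intermediate (grey) one-to-one pairs by the position of the midpoint of the wider peak against protein-coding genes. Doubled pairs stood at 35.9% near gene ends, 28.4% elsewhere in genes and 35.7% outside genes, and intermediate pairs at 45.3, 28.6 and 26.1%.

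Promoters in the RefSeq table, which holds 15101 of the 19126 protein-coding genes of these chromosomes and none of chromosome 8, were compared for the 684 members on the other chromosomes. Both peaks held a promoter in 192 members (28.1%), the knockdown peak alone in 45 (6.58%), and neither in 447 (65.4%). Among halved pairs both peaks held one in 25.3% and the wild-type peak alone in 3.79%. Among pairs between the limits both peaks held one in 42.7%, and the knockdown peak alone and the wild-type peak alone in 134 of 13398 each. Over all pairs both peaks held one in 39.9% and the knockdown peak alone in 1.12%. Members were chosen for a wider knockdown peak, so their higher share with a promoter in that peak alone is largely built into the rule. It is given as a description. Over all 684, the knockdown peaks took in promoters of 54 genes with no promoter in the table that touched the wild-type peak. Some of these genes share a pair with a neighbour whose promoter lay in both peaks. For 19 of the 54 the promoter lay within 0.2 kb of the wild-type peak, for 22 between 0.2 and 1 kb, and for 13 over 1 kb away. The median distance was 0.354 kb and the longest 6.79 kb.

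Genes reached by the knockdown peak alone included AKT2, a kinase of insulin signalling, with a promoter 0.495 kb from the wild-type peak, and INO80, the ATPase of a nucleosome remodelling complex, at 0.430 kb. PUS7, a pseudouridine synthase, lay at 0.021 kb and RNGTT, the mRNA capping enzyme, at 0.732 kb. RPS18, a small-subunit ribosomal protein gene, and its neighbour VPS52 lay 3.68 and 3.59 kb away, in a pair of 11.8 kb in knockdown cells, against 5 kb in wild-type cells. CD52, a surface antigen of lymphocytes, lay at 1.99 kb and C1QA at 4.12 kb, counted to the nearer of its promoters in the table.

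Promoters brought into the knockdown peak had fewer CG than promoters held by both peaks of a pair. The median was 22.5 CG in 300 bases over 82 promoters reached by the knockdown peak alone, against 28 over 258 promoters in both peaks of doubled pairs. It was 28 over 8301 promoters in both peaks of pairs between the limits and 21 over all 21156 protein-coding promoters of the table. The mirror class had the same contrast, with a median of 15 CG in promoters held by the wild-type peak alone in halved pairs (n = 141). Promoters in both peaks of halved pairs had a median of 28 (n = 713). Promoters of a gene overlap one another, so these are not independent. The letters GGGCGG, the GC box, were present on either strand in 53.7% of promoters reached by the knockdown peak alone and in 78.3% of those in both peaks, against 56.6% of all. TATAAA was present in 7.32 and 2.71%, against 9.51% of all, and CCAAT in 30.5 and 36.0%, against 34.4%. In halved pairs, promoters in the wild-type peak alone and in both peaks held GGGCGG in 53.2 and 69.8%. They held TATAAA in 7.80 and 4.07%, and CCAAT in 31.9 and 34.5%. In pairs between the limits, 73.8% of promoters in both peaks held GGGCGG. A match is a run of letters and not a proven site. Of the promoters shown, TNFSF14, RPS9, AACS and COLGALT1 hold GGGCGG, and CCDC42, RPS9 and C1QA hold CCAAT.

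In 115 members both peaks held the start site of exactly 1 promoter of the table, so that growth could be placed upstream or downstream of the gene's start. The knockdown peak gained more upstream in 71 of them and more downstream in 43, with 1 tie. The median gain was 2 kb upstream and 1 kb downstream. Around these start sites the knockdown peaks reached a median of 2958 bases upstream and 2535 downstream, against 1042 and 1345 in the wild type. In 333 halved pairs the loss was larger upstream in 165 and downstream in 158. In 3904 pairs between the limits the difference favoured upstream in 1956 and downstream in 1751. At AACS 6.4 kb were gained upstream and 1.8 kb downstream, and at COLGALT1 5 and 2.2 kb.

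Of the 20 gene lists, those of developmental regulators had no member at a doubled pair. This held for the 39 HOX genes and the lists of endoderm, mesoderm and neural transcription factors, of which 20, 14, 24 and 42 stood at one-to-one pairs with an end within 2 kb of the wider peak. The median wild-type peak there was 152 kb for the 2 pairs of HOX genes, 23.8 kb for neural, 20.1 kb for mesoderm and 20.7 kb for endoderm factors, and 1 neural factor gene alone stood at a wild-type peak of at most 4 kb. Over all protein-coding genes, 403 of 9983 at one-to-one pairs stood at a doubled pair (4.04%), and 384 of 3558 (10.8%) where a wild-type peak was at most 4 kb. At halved pairs stood 1117 of the 9983 (11.2%). The trophoblast and amnion, PRC2, germline, keratin and olfactory receptor lists also had no member at a doubled pair, among 9, 7, 15, 8 and 6 at one-to-one pairs.

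The other lists had 29 genes in all at 28 doubled pairs. Counts this small were not tested and are given beside the 4.04% of all protein-coding genes. A gene counted if an end lay within 2 kb of the wider peak, which in doubled pairs is the knockdown peak chosen by the rule. Some genes therefore counted through the knockdown peak alone. WTAP, the regulatory subunit of the m6A methyltransferase complex, was the member of the m6A list, 1 of 10 at one-to-one pairs. On chromosome 6 its knockdown peak measured 2.4 kb (159726001 to 159728400) and its wild-type peak 1 kb (159726001 to 159727000). Both peaks began at the same base and held the WTAP start (159726693), and the gain of 1.4 kb ran into the gene. The pair was shared with SOD2, on the opposite strand. Each of these genes had a promoter touched by both peaks and another reached by the knockdown peak alone. In the PRC1 list ASXL2, a partner of the H2A deubiquitinase BAP1, was 1 of 23, with 4.2 kb in knockdown cells, against 2 kb in wild-type cells. Its growth was 2 kb upstream of the start and 0.2 kb downstream, and 5 of the 23 stood at halved pairs (21.7%, against 11.2% of all protein-coding genes).

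The pluripotency list had 1 of 17. The pair lay beside POU5F1, which encodes OCT4, with 8.2 kb in knockdown cells (31155601 to 31163800), against 3.4 kb in wild-type cells (31157201 to 31160600). It held the promoters of the neighbouring TCF19 and CCHCR1 and ended 0.537 kb from the lower annotated end of POU5F1 (31164337 to 31170682), so neither peak covered POU5F1 itself. The wild-type peak lay over 2 kb from POU5F1, so the gene counted through the knockdown peak alone.

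Among 44 morphogen and growth factor genes, 3 stood at doubled pairs. FGF20 on chromosome 8 had 6.4 kb in knockdown cells, against 3.2 kb in wild-type cells, over its higher-coordinate end. WNT9A had 5.2 kb in the knockdown against 2.4 kb in the wild type, and SFRP5, a secreted WNT antagonist, 5 kb in the knockdown against 2.4 kb in the wild type. In both pairs the knockdown peak lay within 2 kb of the 3′ end and not at the start. The wild-type peak lay over 2 kb from either end of WNT9A and of SFRP5, so both genes counted through the knockdown peak alone. Of 61 neuronal channel and receptor genes, GRM5, a metabotropic glutamate receptor gene, had 5.4 kb in knockdown cells, against 2.2 kb in wild-type cells. The GABA receptor genes GABRA4 and GABRB1, which start back to back on chromosome 4, shared 1 pair of 3.2 kb in the knockdown against 1.4 kb in the wild type. HSPA8, a constitutive heat shock protein gene, had 5.2 kb in the knockdown against 2 kb in the wild type, with all 3.2 kb gained upstream of its start. Its wild-type peak had the lowest score among the members' wild-type peaks (2.08, percentile 0.171 of the wild-type list). The collagen gene COL8A1 had 7.2 kb in knockdown cells, against 3.4 kb in wild-type cells.

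The larger families were counted beside all protein-coding genes, of which 4.04% stood at doubled and 11.2% at halved pairs. Of 218 ZNF zinc finger genes at one-to-one pairs, 11 stood at doubled pairs (5.05%) and 34 at halved pairs (15.6%). Where a wild-type peak was at most 4 kb, 9 of 96 ZNF genes stood at doubled pairs (9.38%), against 10.8% of all protein-coding genes. Those with the longest gains were ZNF367, with 10.2 kb in knockdown cells, against 5 kb in wild-type cells, ZNF195, with 8.6 kb in the knockdown against 4.2 kb in the wild type, and ZNF488, with 7.8 kb in the knockdown against 3.4 kb in the wild type. Of 180 solute carrier genes, 4 stood at doubled pairs (2.22%) and 22 at halved ones (12.2%). Where a wild-type peak was at most 4 kb, 4 of 59 stood at doubled pairs (6.78%). SLC16A1, a lactate transporter gene, had 7.8 kb in knockdown cells, against 3.4 kb in wild-type cells, SLC27A6, of fatty acid uptake, 4.8 kb in the knockdown against 1.4 kb in the wild type, and SLC7A14 6.2 kb in the knockdown against 2.8 kb in the wild type. Of 31 ribosomal protein genes, RPS9 and RPS18 stood at doubled pairs and 3 at halved ones.

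**Figure D5:**
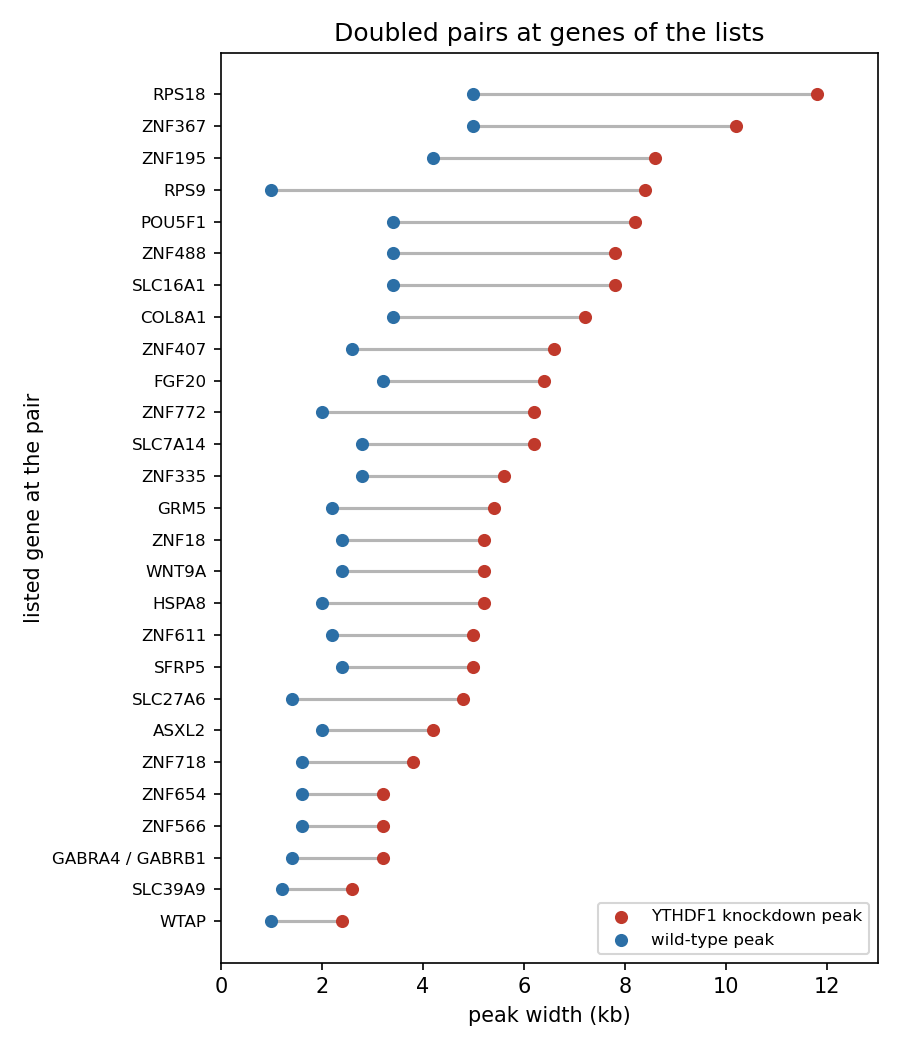
Peak widths in kb in the YTHDF1 knockdown (red) and the wild type (blue) at doubled pairs with an end of a listed gene within 2 kb, ordered by knockdown width, with 1 of the 28 pairs not drawn. RPS9 has the longest line (8.4 kb in the knockdown against 1 kb in the wild type) and WTAP the narrowest knockdown peak (2.4 kb, against 1 kb in the wild type).

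Doubled pairs were present on each of the 22 chromosomes. The share of one-to-one pairs was highest on chromosome 20 (33 of 561, 5.88%), followed by chromosome 18 (16 of 307, 5.21%), and lowest on chromosome 9 (22 of 729, 3.02%) and chromosome 22 (17 of 520, 3.27%). The exact 95% binomial interval of each of the 22 chromosomes included 4.23%, for example 4.08 to 8.16% on chromosome 20. These intervals cover counting error only and take pairs as independent, and differences between chromosomes were not tested. Doubled pairs were fewer than halved pairs on each chromosome, with 17 against 91 on chromosome 22 and 33 against 59 on chromosome 20. Along a chromosome, the next one-to-one pair after a doubled pair was doubled in 43 of 710 cases (6.06%) and halved in 80 (11.3%). After a halved pair it was doubled in 3.56% and halved in 14.5% of 2135 cases.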

How the data were processed

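The values used are peak positions and a score per peak, deposited by the authors as 1 list for each H2AK119ub library. Per the submitters' processing notes, SICER 1.1, MACS2 2.1.0, Picard, SAMtools 1.3.1, Bowtie2 2.2.5 and Trimmomatic 0.35 were used with the build hg38. The notes name these tools without a role or order, and any use of the input in peak calling is not stated. The lists held 34393 knockdown and 32798 wild-type peaks. Starts count from 0 and ends are inclusive, which was read from the 200-base grid, and positions are printed counting from 1.

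Peaks were paired where they shared at least 1 base with each other and no other peak of chromosomes 1 to 22. The pairing was tested on simulated data with planted pairs. Gene ends came from a RefSeq table of GRCh38.p14, which shares coordinates with hg38, and promoters from a RefSeq promoter table that is not complete. No genome sequence was used, so the base composition of whole peaks was not computed. Exact intervals are Clopper-Pearson intervals at 95% from SciPy 1.17.1 and cover counting error only. Python 3.11.15, pandas 2.3.3, NumPy 2.4.6 and matplotlib 3.10.9 were used.

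The pairs, gene lists and comparisons were chosen with earlier results of these data known. Named pairs were the 15 longest gains, the 10 largest ratios, the 10 highest knockdown scores, the 5 nearest to the limit on either side (fewer are printed) and up to 3 genes per list. Some pairs under these rules are not reported here. Among genes reached by the knockdown peak alone, examples were chosen after their values were seen, as were the comparisons by direction from the start site, by the next pair, and at widths of 4 to 8 kb or of at most 4 kb. No test was run, as each group had 1 library.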

Additional observations from a re-analysis of the deposited data

How the results depend on the processing

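No paired analysis was possible because each group had 1 H2AK119ub library, and for the same reason no replicate could be left out. The number of doubled pairs stayed below the number of halved pairs under each of the 10 alternatives tried. When at least 50% of each peak had to be shared, 77 pairs were doubled and 157 halved, a drop that follows from the requirement itself, since a peak inside one over 2 times as wide cannot meet it. In that set 84.4% grew on both sides and 41.6% lay near a gene end. The requirement keeps only doubled pairs whose knockdown peak encloses the whole wild-type peak, so its higher share on both sides is largely built in. Among the 549 enclosing members of the main set, 477 grew on both sides. In the upper 50% of each list by score there were 271 doubled and 1038 halved pairs, with 72.7% on both sides and 43.2% near a gene end, and the cause was not tested. Without peaks under 2 kb, 453 pairs were doubled, which leaves out by construction the narrow wild-type peaks. A limit of 1.5 gave 1966 doubled and 4522 halved pairs with 58.7% on both sides, and a limit of 3 gave 147 and 592 with 78.2%. Windows of 5 and 10 kb put 44.0% and 53.4% of doubled pairs near a gene end. Under the alternatives these shares were computed for doubled pairs only. They therefore cannot be set beside the main-setting shares of halved pairs or pairs between the limits. With ratios divided by their median, 1025 pairs were doubled and 1446 halved. Other values moved less, by under 1.5 times for counts and within the binomial interval for shares. The unknown depth limits every statement on peak edges.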

Other observations

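In the knockdown peaks of doubled pairs lay 5 annotated microRNA hairpins of the RefSeq table. No count over all one-to-one pairs is set beside this number, so it is a description only. Of these hairpins, MIR6079, MIR641, MIR5703 and MIR6825 also touched the wild-type peak, and MIR3659 on chromosome 1 (38089231 to 38089329) lay in the knockdown peak alone.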
